A study of Mus musculus with 8 samples.

Results

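The cadherins and protocadherins described here were all genes on the array whose symbol began with Pcdh, or with Cdh followed by a digit. With 1 probe set taken for each gene, the one with the highest mean over all arrays, this gave 56 genes of the 18193 measured, 21 cadherins and 35 protocadherins. Probe sets that carried several gene symbols were left out, which removed the alpha protocadherins. No probe set carried the symbol of a gamma protocadherin other than Pcdhgc4. The clustered protocadherins measured were thus the 22 beta genes and Pcdhgc4. All 56 symbols matched the mouse gene table.

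The genes were followed in 4 groups of 2 arrays each, from mouse cells of the 129S6/SvEvTac background. Menin-null PILECs and wild-type PILECs were pancreatic islet-like endocrine cells, obtained by culturing embryonic stem cells through embryoid bodies and then in media that direct them towards endocrine pancreas. Menin-null mESCs and wild-type mESCs were the undifferentiated embryonic stem cells, grown on irradiated fibroblast feeders with leukemia inhibitory factor, then freed of feeders and kept on gelatin. The menin-null cells (Men1-KO in the labels) were of the single line 3.2N and the wild-type cells of the single line TC1, so genotype and line cannot be told apart. Menin is the product of Men1, a tumor suppressor gene of endocrine tissues that acts with histone methyltransferases in the nucleus.

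Cadherins are transmembrane proteins that hold neighbouring cells together through calcium-dependent contacts between their extracellular repeats. Classical cadherins bind beta-catenin and p120-catenin with their cytoplasmic tails, and alpha-catenin links them to actin. Epithelia and mouse embryonic stem cells rely on E-cadherin (Cdh1), while neural and mesenchymal cells rely more on N-cadherin (Cdh2), and the change from E- to N-cadherin accompanies many developmental transitions. Protocadherins are the larger branch of the superfamily and are best known in the nervous system. The delta protocadherins lie singly in the genome, whereas the alpha, beta and gamma protocadherins lie in tandem clusters, from which single neurons use varied combinations that give them distinct surface identities.

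Values are log2 signals as deposited. Signals of different probe sets cannot be set against each other, so levels were compared between groups within a gene only. A group mean of at least 7 was used as a working limit for a clear signal, which is not a measured background. Over all genes, arrays of a group correlated at 0.994 to 0.998, and PILEC arrays correlated with mESC arrays at 0.832 to 0.852. Men1 itself gave 7.95 and 8.02 in menin-null PILECs, 10.06 and 9.92 in wild-type PILECs, 7.77 and 7.82 in menin-null mESCs and 9.90 and 9.97 in wild-type mESCs, lower in every menin-null array, as the labels have it. Among the islet markers that could check the PILEC label, Gcg, Iapp and Pdx1 stayed below 7 in every group, and Ins2 averaged 7.37 and 7.23 in menin-null and wild-type PILECs, against 7.19 and 6.82 in menin-null and wild-type mESCs, which did not pass the test in either genotype. Of the 11 islet markers measured, 6 rose and 1 fell in menin-null cells and 4 rose and 2 fell in wild-type cells, with the largest rises in Sst and Chga.

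The delta-2 protocadherins (Pcdh8, Pcdh10, Pcdh17, Pcdh18 and Pcdh19) formed the subfamily in which every gene and every probe set rose in PILECs, so the 250 bases ahead of their annotated start are printed here from RefSeq (GRCm38.p6), 5′ to 3′ on the gene's strand, with each CG dinucleotide in capitals. They lie at chr14:79771313-79771562 (minus strand) for Pcdh8, chr3:45378148-45378397 (plus) for Pcdh10, chr14:84443313-84443562 (plus) for Pcdh17, chr3:49757317-49757566 (minus) for Pcdh18 and chrX:133688994-133689243 (minus) for Pcdh19.
Pcdh8: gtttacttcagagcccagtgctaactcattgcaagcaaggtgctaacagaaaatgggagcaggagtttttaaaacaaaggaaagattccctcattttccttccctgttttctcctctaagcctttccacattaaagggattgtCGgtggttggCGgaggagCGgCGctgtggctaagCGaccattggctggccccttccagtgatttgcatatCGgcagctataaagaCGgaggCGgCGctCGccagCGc
Pcdh10: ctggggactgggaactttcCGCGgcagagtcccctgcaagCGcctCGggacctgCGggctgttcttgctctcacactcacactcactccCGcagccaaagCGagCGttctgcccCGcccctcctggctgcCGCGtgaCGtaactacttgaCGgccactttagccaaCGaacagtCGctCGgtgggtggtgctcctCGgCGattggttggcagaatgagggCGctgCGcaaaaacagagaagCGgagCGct
Pcdh17: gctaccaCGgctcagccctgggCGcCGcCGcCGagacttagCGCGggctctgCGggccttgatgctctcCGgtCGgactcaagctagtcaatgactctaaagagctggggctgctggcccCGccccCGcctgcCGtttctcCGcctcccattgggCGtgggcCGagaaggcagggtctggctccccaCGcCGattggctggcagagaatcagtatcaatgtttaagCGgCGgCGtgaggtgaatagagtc
Pcdh18: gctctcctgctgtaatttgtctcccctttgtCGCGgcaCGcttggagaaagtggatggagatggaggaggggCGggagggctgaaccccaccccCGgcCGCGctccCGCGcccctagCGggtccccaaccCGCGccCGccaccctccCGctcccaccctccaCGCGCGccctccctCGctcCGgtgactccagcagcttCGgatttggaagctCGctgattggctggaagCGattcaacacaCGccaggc
Pcdh19: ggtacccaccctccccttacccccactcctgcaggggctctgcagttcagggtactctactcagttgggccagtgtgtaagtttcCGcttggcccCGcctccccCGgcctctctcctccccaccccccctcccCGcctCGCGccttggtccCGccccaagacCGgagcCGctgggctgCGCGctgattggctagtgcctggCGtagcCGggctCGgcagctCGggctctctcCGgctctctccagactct
The Pcdh10, Pcdh17, Pcdh18 and Pcdh19 sequences held 22, 21, 23 and 16 CG dinucleotides, a density that 14.8%, 16.3%, 13.3% and 25.4% of all 32851 promoters reached. The Pcdh8 sequence held 11, which 35.6% of promoters reached, and it alone of these 5 held TATAAA, searched on both strands, which occurred in 12.4% of all promoters. Each of the 5 held ATTGG, searched on both strands where it reads CCAAT, a pentamer found in 33.8% of all promoters and chosen after the sequences had been seen. Of the 56 members, 20 had an entry, with 23 promoters between them, of which 7 had at least 18 CG dinucleotides (21.7% of all promoters) and 15 held ATTGG. These counts describe letters in a window and were not tested.

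Most cadherins and protocadherins had a higher signal in PILECs than in mESCs of the same genotype. In menin-null cells 38 of 56 rose and 3 fell, where 28.9% of all genes tested rose and 36.1% fell (65.0% called in either direction). In wild-type cells 38 again rose and 3 fell, where 27.8% of all genes rose and 35.3% fell (63.1% in either direction). A gene was called at a limma adjusted p under 0.05 over all genes. The median difference of the members was 1.34 in menin-null and 1.23 in wild-type cells on the log2 scale, beside -0.07 and -0.08 for all genes. A rise of at least 2-fold was called for 32 and 31 members in menin-null and wild-type cells, where 13.5% and 13.4% of all genes had one, and a fall of at least 2-fold for 3 members in each genotype, where 18.1% and 17.0% of all genes had one. The genotypes called 37 members alike, 34 higher and 3 lower, and 4 more passed in menin-null cells only and 4 in wild-type cells only. Of all 18193 genes, 10267 were called in both genotypes, 4494 higher, 5721 lower and 52 in opposite directions. A further 1563 passed in menin-null cells only and 1210 in wild-type cells only. In these bulk samples, more cells of an expressing type and more RNA per cell cannot be told apart.

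The classical type I cadherins moved in opposite directions. Cdh1, the E-cadherin of epithelia and stem cell colonies, gave 6.63 and 6.66 in menin-null PILECs, 7.25 and 7.04 in wild-type PILECs, 11.84 and 11.81 in menin-null mESCs and 11.79 and 11.90 in wild-type mESCs. It was high in all 4 mESC arrays and fell by 5.18 ± 0.095 (SE) on the log2 scale in menin-null cells, 36.2-fold (adjusted p = 1.88e-08), and by 4.70 ± 0.095 in wild-type cells, 26.0-fold (adjusted p = 3.05e-08). Cdh3, the P-cadherin of placenta and basal epithelia and the neighbour of Cdh1 on chromosome 8, gave 6.80 and 6.54 in menin-null PILECs, 6.73 and 6.72 in wild-type PILECs, 8.74 and 8.54 in menin-null mESCs and 8.41 and 8.18 in wild-type mESCs. Its fall, 3.92-fold and 2.97-fold in menin-null and wild-type cells, was thus smaller than that of its neighbour, and its dimmer probe set, with -0.21 and 0.055 in menin-null and wild-type cells, did not pass.

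Cdh2, the N-cadherin of neural and mesenchymal cells, ran the other way. Its arrays read 11.40 and 11.68 in menin-null PILECs, 11.70 and 11.77 in wild-type PILECs, 7.03 and 7.66 in menin-null mESCs and 7.47 and 7.14 in wild-type mESCs, with a rise of 4.20 ± 0.21 in menin-null cells (18.3-fold, adjusted p = 6.42e-07) and 4.43 ± 0.21 in wild-type cells (21.5-fold, adjusted p = 5.41e-07). Cdh4, the R-cadherin of retina and brain, read 10.06 and 10.29 in menin-null PILECs, 9.98 and 9.84 in wild-type PILECs, 6.80 and 7.05 in menin-null mESCs and 7.24 and 7.21 in wild-type mESCs. It rose 9.53-fold and 6.42-fold in menin-null and wild-type cells, with no PILEC array near any mESC array. The dimmest of its 3 probe sets did not move (-0.074 and -0.011). Cdh15, the M-cadherin of muscle, gave 7.41 and 7.27 in menin-null PILECs, 7.72 and 7.95 in wild-type PILECs, 7.54 and 7.13 in menin-null mESCs and 7.13 and 7.35 in wild-type mESCs. It rose in wild-type cells only as a call (0.59 ± 0.16, adjusted p = 0.0106), and in menin-null cells its difference was 0.0058 ± 0.16.

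**Figure D1:**
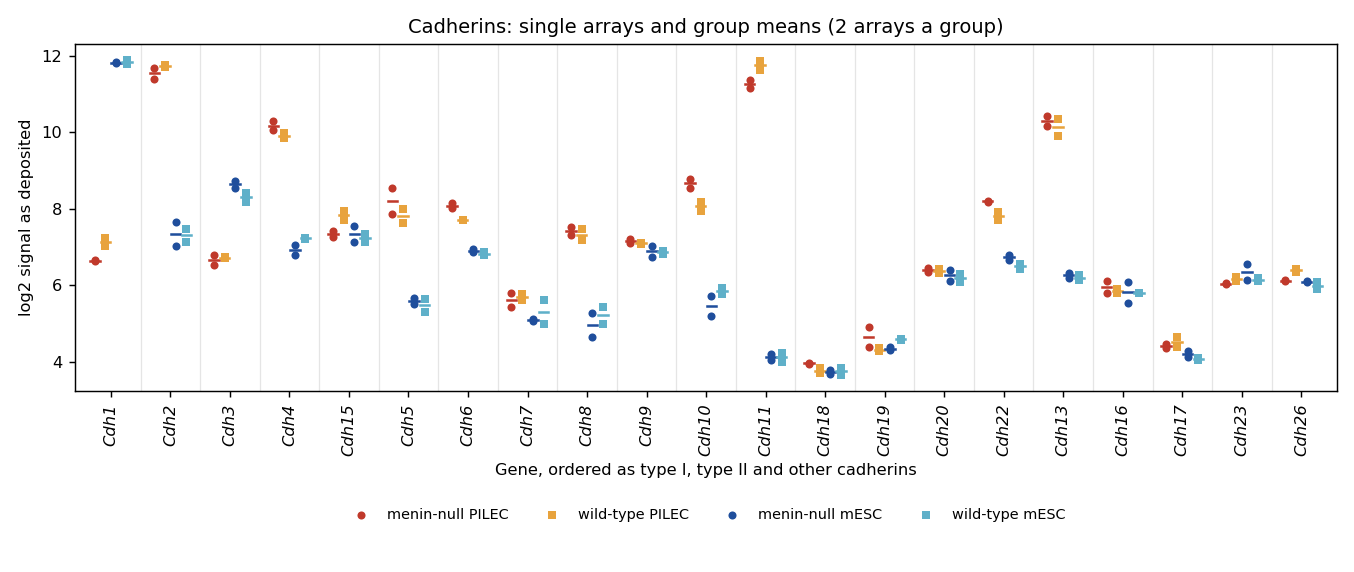
Signals of the 21 cadherins. The vertical axis is the deposited log2 signal, each point is 1 array and each short line the mean of the 2 arrays of a group. Cdh1 and Cdh3 lie lower in both PILEC groups, whereas Cdh2, Cdh4, Cdh5, Cdh8, Cdh10, Cdh11 and Cdh13 lie higher in PILECs than in mESCs, and the genes at the foot of the plot hardly differ between groups.

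Of the 11 type II cadherins, 6 rose in both genotypes and none fell. Cdh11, the OB-cadherin of osteoblasts and mesenchyme, gave 11.36 and 11.15 in menin-null PILECs, 11.63 and 11.87 in wild-type PILECs, 4.05 and 4.21 in menin-null mESCs and 4.23 and 4.0 in wild-type mESCs. This was the largest change of any member, 7.12 ± 0.13 (139-fold, adjusted p = 1.88e-08) in menin-null and 7.64 ± 0.13 (199-fold, adjusted p = 2.19e-08) in wild-type cells. The 4 PILEC arrays lay far from the 4 mESC arrays, and the dimmer of its probe sets rose as well, by 2.78 and 3.68 in menin-null and wild-type cells.

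Its neighbours on chromosome 8 changed less. Cdh5, the VE-cadherin of endothelial junctions, gave 8.55 and 7.86 in menin-null PILECs, 7.63 and 7.99 in wild-type PILECs, 5.68 and 5.50 in menin-null mESCs and 5.65 and 5.31 in wild-type mESCs. Cdh8, found on neurons, gave 7.31 and 7.53 in menin-null PILECs, 7.47 and 7.18 in wild-type PILECs, 5.27 and 4.64 in menin-null mESCs and 5.0 and 5.44 in wild-type mESCs. Rises were 6.14-fold and 5.01-fold for Cdh5 and 5.51-fold and 4.29-fold for Cdh8 in menin-null and wild-type cells. The dimmer probe set of Cdh5 rose less, by 0.925 and 0.754 on the log2 scale. Those of Cdh8 rose by 0.46 to 1.32 in menin-null and 0.74 to 1.37 in wild-type cells. Other endothelial markers did not move with Cdh5 as a list: of 6, Emcn and Kdr rose in both genotypes while Pecam1, Tek and Cldn5 fell, and the list averaged 6.28 to 6.60 in menin-null PILEC arrays, 6.57 to 6.63 in wild-type PILEC arrays, 6.81 to 6.85 in menin-null mESC arrays and 6.76 to 6.78 in wild-type mESC arrays.

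Cdh10, a brain cadherin, gave 8.54 and 8.79 in menin-null PILECs, 8.19 and 7.95 in wild-type PILECs, 5.20 and 5.72 in menin-null mESCs and 5.94 and 5.77 in wild-type mESCs. Cdh6, the K-cadherin of kidney and brain, gave 8.14 and 8.02 in menin-null PILECs, 7.70 and 7.72 in wild-type PILECs, 6.96 and 6.86 in menin-null mESCs and 6.79 and 6.86 in wild-type mESCs. The rise of Cdh10 was 9.22-fold in menin-null and 4.62-fold in wild-type cells, and that of Cdh6 was 2.25-fold and 1.85-fold. Both lie in a row with Cdh9 on chromosome 15, and Cdh9, which stayed at 7.15 and 7.10 in menin-null and wild-type PILECs against 6.89 and 6.86 in menin-null and wild-type mESCs, passed in neither genotype (adjusted p = 0.0559 and 0.0895). Cdh22, known from pituitary and brain, rose 2.77-fold and 2.50-fold in menin-null and wild-type cells. Cdh7, Cdh18, Cdh19 and Cdh20 had group means below 7 throughout and passed in neither genotype. Of the 3 probe sets of Cdh7, the 2 dimmer ones passed as higher in menin-null cells (0.36 and 0.62), and none passed in wild-type cells.

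The remaining cadherins were mostly flat. Cdh13, the T-cadherin that is held by a lipid anchor and has no cytoplasmic tail, gave 10.16 and 10.44 in menin-null PILECs, 10.35 and 9.91 in wild-type PILECs, 6.31 and 6.20 in menin-null mESCs and 6.13 and 6.27 in wild-type mESCs, a rise of 4.04 ± 0.16 (16.4-fold) in menin-null and 3.93 ± 0.16 (15.3-fold) in wild-type cells. Of its 4 probe sets, 3 rose in both genotypes. Cdh17, the LI-cadherin of intestine, and Cdh26 passed in wild-type cells only, with rises of 0.45 ± 0.11 and 0.40 ± 0.088, and all their group means were below 7. Cdh16, the cadherin of kidney tubules, and Cdh23, which forms the tip links of hair cells, did not pass in either genotype.

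All delta-1 protocadherins changed, 3 upwards and Pcdh1 downwards. Pcdh11x, an X-linked protocadherin of the brain, gave 9.29 and 9.56 in menin-null PILECs, 8.82 and 8.49 in wild-type PILECs, 4.64 and 4.38 in menin-null mESCs and 4.57 and 4.50 in wild-type mESCs. It rose by 4.92 ± 0.15 (30.2-fold, adjusted p = 6.63e-08) in menin-null and 4.12 ± 0.15 (17.4-fold, adjusted p = 1.62e-07) in wild-type cells. Pcdh9, also expressed in brain, gave 10.37 and 10.40 in menin-null PILECs, 10.03 and 10.04 in wild-type PILECs, 6.50 and 5.64 in menin-null mESCs and 5.83 and 6.11 in wild-type mESCs. Its PILEC arrays were tight and its mESC arrays spread, and the rises of 20-fold and 16.7-fold in menin-null and wild-type cells exceeded that spread.

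Pcdh7 gave 7.83 and 8.11 in menin-null PILECs, 7.84 and 7.86 in wild-type PILECs, 4.25 and 4.21 in menin-null mESCs and 3.94 and 4.43 in wild-type mESCs, rises of 13.4-fold and 12.7-fold in menin-null and wild-type cells. That size rested on the brightest of its probe sets, since the other two rose by no more than 0.59 in menin-null and 0.56 in wild-type cells. Pcdh1, known from airway epithelium and endothelium, averaged 5.42 ± 0.16 in menin-null PILECs, 5.50 ± 0.34 in wild-type PILECs, 6.57 ± 0.10 in menin-null mESCs and 6.79 ± 0.02 in wild-type mESCs (SD, n = 2 each). It fell by 1.15 ± 0.16 and 1.29 ± 0.16 (SE) in menin-null and wild-type cells, and was the only protocadherin that fell, at signals below 7 in every group.

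The 5 delta-2 protocadherins, whose promoters are printed above, rose in both genotypes, and each of their 16 probe sets rose as well. Pcdh8, known as paraxial protocadherin in early mesoderm and as an activity-regulated synaptic protein, gave 10.85 and 11.08 in menin-null PILECs, 10.55 and 10.40 in wild-type PILECs, 4.80 and 5.45 in menin-null mESCs and 5.64 and 5.03 in wild-type mESCs. Its rise was 5.83 ± 0.25 (57.0-fold) in menin-null and 5.14 ± 0.25 (35.2-fold) in wild-type cells. Pcdh17, a protocadherin of basal ganglia synapses, gave 8.53 and 9.13 in menin-null PILECs, 8.41 and 8.63 in wild-type PILECs, 4.27 and 4.49 in menin-null mESCs and 4.44 and 4.38 in wild-type mESCs. These were the delta-2 genes with the largest rises, that of Pcdh17 being 21.8-fold in menin-null and 17.3-fold in wild-type cells.

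Pcdh19, an X-linked gene mutated in a human epilepsy of females, gave 9.99 and 10.10 in menin-null PILECs, 9.77 and 9.73 in wild-type PILECs, 6.35 and 6.30 in menin-null mESCs and 6.10 and 5.49 in wild-type mESCs. Pcdh18 gave 9.09 and 8.96 in menin-null PILECs, 9.25 and 9.43 in wild-type PILECs, 5.18 and 5.91 in menin-null mESCs and 6.06 and 6.08 in wild-type mESCs. Pcdh10, the OL-protocadherin of axon pathways, gave 9.21 and 9.13 in menin-null PILECs, 8.77 and 8.69 in wild-type PILECs, 7.06 and 7.23 in menin-null mESCs and 7.19 and 7.23 in wild-type mESCs. Pcdh19 rose 13.2-fold and 15.5-fold, Pcdh18 rose 11.1-fold and 9.64-fold, and Pcdh10, which had a clear signal in mESCs already, rose 4.07-fold and 2.88-fold in menin-null and wild-type cells. The adjusted p of these 5 genes was at most 2.7e-06 in either genotype.

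Pcdh20, which lies next to Pcdh9 on chromosome 14, gave 7.05 and 7.06 in menin-null PILECs, 6.55 and 6.44 in wild-type PILECs, 5.04 and 5.09 in menin-null mESCs and 5.12 and 4.81 in wild-type mESCs, rises of 3.98-fold and 2.89-fold. Pcdh15, the partner of Cdh23 in hair cell tip links, passed in menin-null cells only (0.46 ± 0.17, adjusted p = 0.0482) by its brightest probe set. Its other probe sets passed in both genotypes, with 0.78 and 0.86 in menin-null and 0.60 and 0.45 in wild-type cells. Pcdh12, an endothelial protocadherin, did not pass in either genotype. Pcdh15 and Pcdh12 had group means below 7 throughout.

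**Figure D2:**
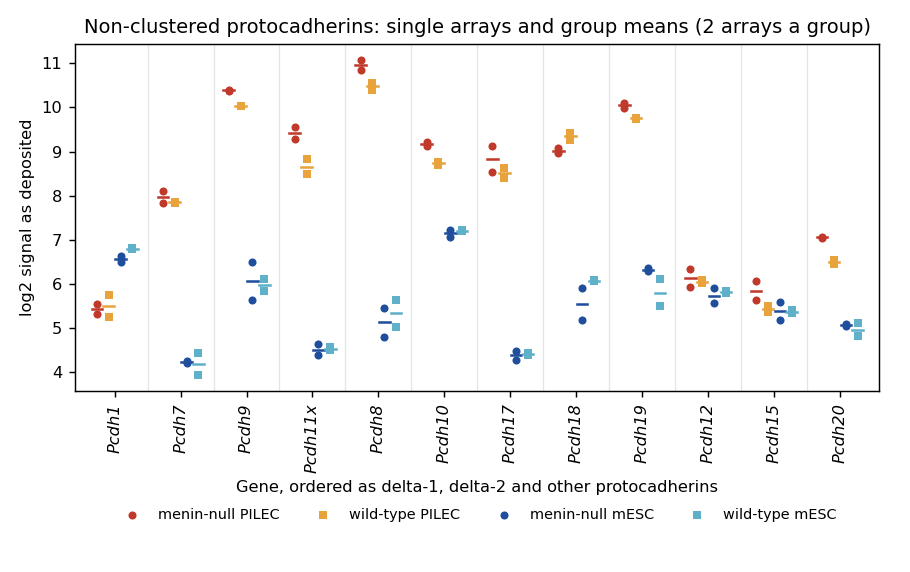
Signals of the 12 protocadherins outside the clusters, in deposited log2 units on the vertical axis. Each point is 1 array and each short line the mean of a group of 2. PILEC points stand above mESC points for 3 delta-1 genes, the 5 delta-2 genes and Pcdh20, below them for Pcdh1, and close to them for Pcdh12 and Pcdh15.

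The beta protocadherins are 22 genes in a row on chromosome 18, each encoded by a single exon with a promoter of its own. In menin-null cells 18 of them rose and in wild-type cells 16, 15 of them in both, and none fell. Their probe sets carry 1 symbol each, but the genes are close in sequence, so a probe set may also bind transcripts of its relatives, which was not tested, and the value of a single beta gene is uncertain. Pcdhb17 gave 8.15 and 8.63 in menin-null PILECs, 8.58 and 8.55 in wild-type PILECs, 4.14 and 4.01 in menin-null mESCs and 4.36 and 4.10 in wild-type mESCs. Pcdhb3 gave 8.59 and 9.02 in menin-null PILECs, 8.24 and 8.14 in wild-type PILECs, 4.66 and 4.79 in menin-null mESCs and 4.63 and 4.88 in wild-type mESCs. Pcdhb17 rose by 19.9-fold and 20.2-fold and Pcdhb3 by 16.9-fold and 10.8-fold in menin-null and wild-type cells. Pcdhb17 had the largest rise among the beta genes in both genotypes.

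Pcdhb20 gave 7.95 and 8.21 in menin-null PILECs, 8.22 and 8.24 in wild-type PILECs, 4.47 and 4.65 in menin-null mESCs and 4.35 and 4.63 in wild-type mESCs. Pcdhb21 gave 8.10 and 8.21 in menin-null PILECs, 8.06 and 8.05 in wild-type PILECs, 5.03 and 4.30 in menin-null mESCs and 4.65 and 4.33 in wild-type mESCs. Pcdhb7 gave 6.74 and 7.42 in menin-null PILECs, 6.85 and 6.95 in wild-type PILECs, 4.09 and 4.31 in menin-null mESCs and 4.69 and 4.37 in wild-type mESCs. The first pair, neighbours in the cluster, rose alike, by 11.4-fold and 13.3-fold for Pcdhb20 and 11.3-fold and 11.8-fold for Pcdhb21 in menin-null and wild-type cells, and Pcdhb7 rose 7.37-fold and 5.18-fold.

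Smaller rises followed. Pcdhb16 gave 7.54 and 7.69 in menin-null PILECs, 7.66 and 7.59 in wild-type PILECs, 5.34 and 5.24 in menin-null mESCs and 5.22 and 5.64 in wild-type mESCs. Pcdhb22 gave 5.86 and 5.96 in menin-null PILECs, 6.11 and 6.07 in wild-type PILECs, 3.95 and 3.94 in menin-null mESCs and 4.05 and 3.78 in wild-type mESCs. Pcdhb10 gave 6.48 and 6.87 in menin-null PILECs, 6.59 and 6.46 in wild-type PILECs, 4.84 and 4.81 in menin-null mESCs and 4.98 and 5.02 in wild-type mESCs. Rises were 5.0-fold and 4.58-fold, 3.90-fold and 4.52-fold, and 3.60-fold and 2.87-fold in menin-null and wild-type cells.

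Pcdhb11 gave 7.25 and 7.44 in menin-null PILECs, 7.01 and 7.22 in wild-type PILECs, 5.74 and 5.72 in menin-null mESCs and 5.68 and 5.56 in wild-type mESCs. Pcdhb8 gave 7.59 on both arrays of menin-null PILECs, 7.44 and 7.39 in wild-type PILECs, 6.19 and 5.85 in menin-null mESCs and 6.02 and 6.04 in wild-type mESCs. Pcdhb12 gave 5.93 and 5.55 in menin-null PILECs, 5.63 and 5.58 in wild-type PILECs, 3.98 and 4.50 in menin-null mESCs and 4.55 and 4.60 in wild-type mESCs. Rises were 3.07-fold and 2.82-fold, 2.98-fold and 2.60-fold, and 2.82-fold and 2.04-fold in menin-null and wild-type cells. Pcdhb5, Pcdhb9, Pcdhb15 and Pcdhb19 also rose in both genotypes, by 0.83 to 1.38 on the log2 scale. The dimmer probe set of Pcdhb15 gave 0.078 and 0.49 in menin-null and wild-type cells and passed in neither.

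The rise was not shared by every beta gene. Pcdhb1, Pcdhb2 and Pcdhb6 passed in neither genotype, Pcdhb4, Pcdhb13 and Pcdhb18 rose in menin-null cells only, by 0.31 to 0.37, and Pcdhb14 in wild-type cells only, by 0.29. Those 7 genes had no group mean above 6 and lay scattered through the row, so that Pcdhb3, with 4.08 and 3.43 in menin-null and wild-type cells, stood between Pcdhb2 at 0.22 and 0.36 and Pcdhb4 at 0.31 and 0.072. Pcdhgc4, near the end of the gamma cluster, had a clear signal in all groups and rose 1.77-fold and 1.82-fold in menin-null and wild-type cells.

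**Figure D3:**
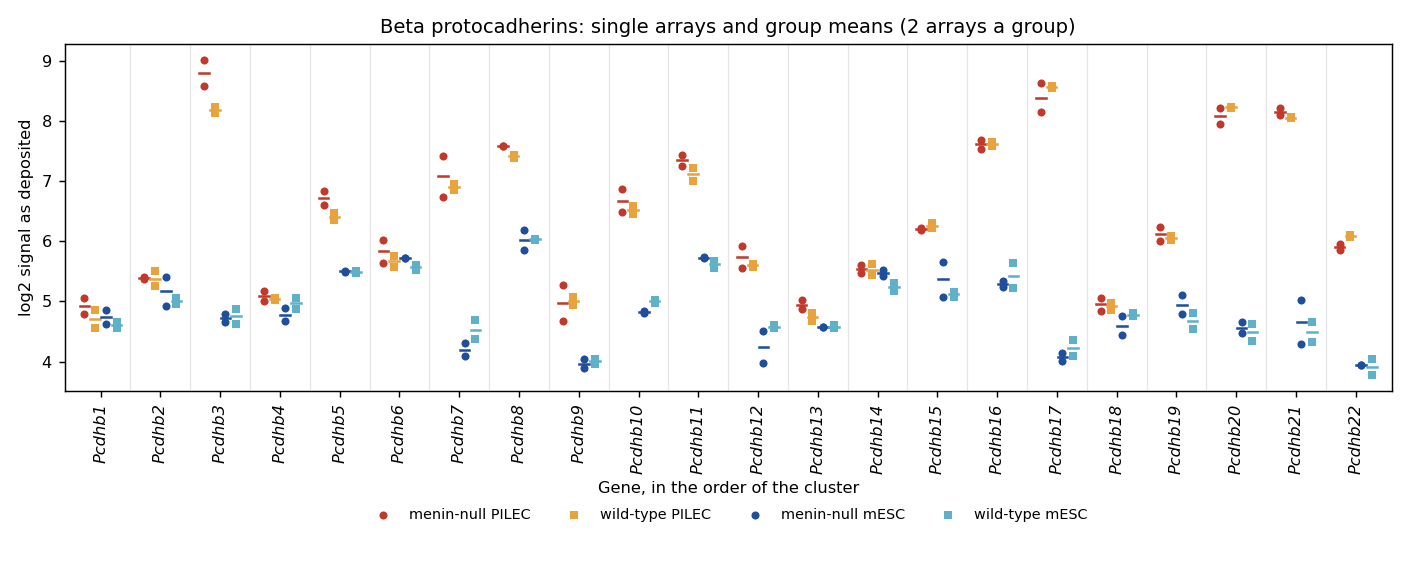
Signals of the 22 beta protocadherins in their order along the cluster. The vertical axis is the deposited log2 signal, points are single arrays and short lines are means of 2 arrays. Pcdhb3, Pcdhb17, Pcdhb20 and Pcdhb21 stand far above their mESC points in both PILEC groups, whereas Pcdhb1, Pcdhb2, Pcdhb4, Pcdhb6, Pcdhb13, Pcdhb14 and Pcdhb18 stay close to them.

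By the working limit of 7, menin-null PILECs gave a clear signal for 29 members and wild-type PILECs for 28, against 6 in menin-null and 7 in wild-type mESCs. In both PILEC groups and neither mESC group 22 members were above the limit, among them 7 type II cadherins, 3 delta-1, 4 delta-2 and 7 clustered protocadherins. Cdh3 was the only member above it in both mESC groups and neither PILEC group. No group mean of 25 members reached it.

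Markers of other cell types moved together with these members. Of 8 neuronal markers 7 rose in menin-null and 8 in wild-type cells, and the list averaged 12.2 to 12.4 in menin-null PILEC arrays, 12.1 to 12.2 in wild-type PILEC arrays, 7.82 to 7.90 in menin-null mESC arrays and 7.53 to 7.67 in wild-type mESC arrays. Markers of fibroblasts and feeder cells rose for 6 of 7 genes in both genotypes, with Thy1 the exception that fell, and averaged 10.6 to 11.0 in menin-null PILEC arrays, 10.8 to 10.9 in wild-type PILEC arrays, 6.18 to 6.45 in menin-null mESC arrays and 6.23 to 6.48 in wild-type mESC arrays. All 6 markers of neural progenitors and glia rose. All 6 epithelial markers fell with Cdh1 and Cdh3, as did all 8 pluripotency markers, and the epithelial list averaged 7.19 to 7.28 in menin-null PILEC arrays, 6.71 to 6.93 in wild-type PILEC arrays, 9.96 to 10.1 in menin-null mESC arrays and 10.6 in both wild-type mESC arrays. The part of such cells in the changes of cadherins and protocadherins was not tested.

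Genes known to act with or on cadherins were followed from lists. Of 11 catenins and partners, 3 rose and 6 fell in both genotypes. The neuronal forms rose: Ctnna2, alpha-N-catenin, by 4.56 ± 0.17 and 4.01 ± 0.17, and Ctnnd2, delta-catenin, by 2.32 ± 0.13 and 2.21 ± 0.13 in menin-null and wild-type cells. Ctnna1, the alpha-catenin of epithelia, fell by 1.58 ± 0.082 and 1.30 ± 0.082, Vcl, which encodes vinculin, by 1.24 ± 0.093 and 1.04 ± 0.093, and Ctnnd1, p120-catenin, by 0.91 ± 0.11 and 0.79 ± 0.11. Ctnnb1, beta-catenin, averaged 13.45 and 13.50 in menin-null and wild-type PILECs against 13.43 and 13.47 in menin-null and wild-type mESCs, and its differences of 0.017 and 0.023 did not pass.

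All 11 transcription and splicing factors known for the switch between epithelial and mesenchymal cadherins were called in both genotypes, 6 higher and 5 lower. Zeb1, a repressor of Cdh1, rose by 2.10 ± 0.14 in menin-null and 2.77 ± 0.14 in wild-type cells. Snai2, of the same kind, rose by 1.39 ± 0.18 and 2.30 ± 0.18, and Snai1, Zeb2, Twist1 and Twist2 rose by 0.51 to 1.73. Grhl2, an activator of Cdh1 in epithelia, fell by 3.01 ± 0.086 and 4.0 ± 0.086 in menin-null and wild-type cells, and Esrp1, an epithelial splicing factor, fell by 3.59 ± 0.17 and 4.22 ± 0.17. Ovol1, Ovol2 and Snai3 fell as well, the last against the direction of its relatives Snai1 and Snai2.

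**Figure D4:**
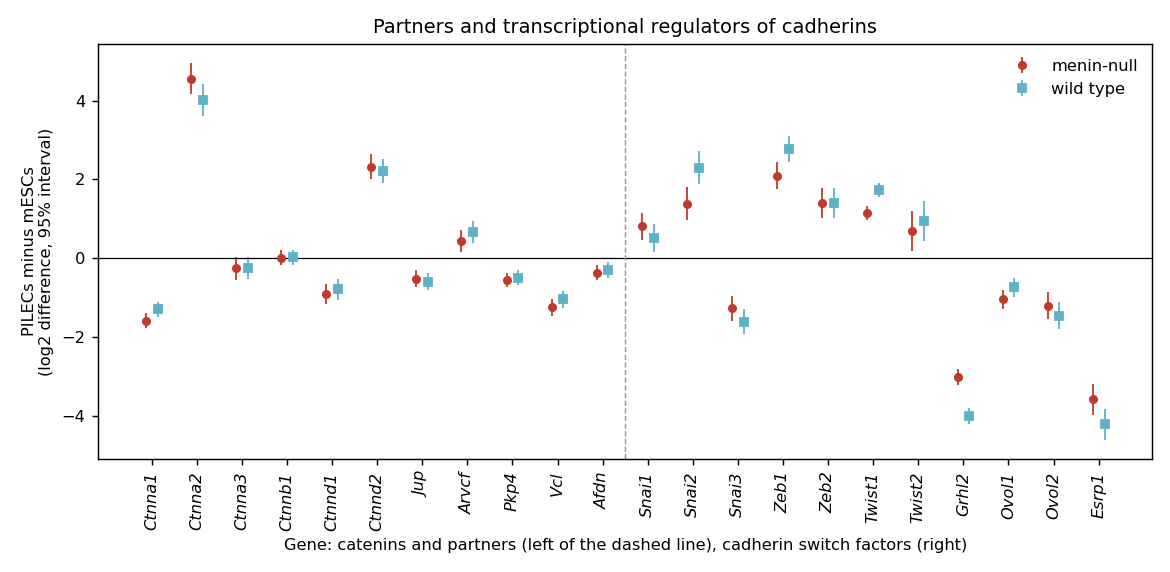
Differences between PILECs and mESCs for 11 catenins and partners (left of the dashed line) and 11 cadherin switch factors (right), in menin-null cells and in wild-type cells. Points are log2 differences and bars their 95% intervals from the fit. Ctnna2 and Ctnnd2 lie well above 0 while Ctnnb1 lies on it, and Grhl2 and Esrp1 lie lowest.

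Most factors known to act at clustered protocadherin promoters were called lower in PILECs. Of 11, 8 fell in menin-null and 7 in wild-type cells, beside 36.1% and 35.3% of all genes. None rose, and the rest did not pass. Dnmt3b, a DNA methyltransferase, fell by 4.60 ± 0.11 in menin-null and 4.92 ± 0.11 in wild-type cells. Wapl, which releases cohesin, fell by 2.55 ± 0.086 and 2.64 ± 0.086, and Ctcf, which binds those promoters, by 1.27 ± 0.084 and 0.93 ± 0.084. Under the alternative settings the fall of Wapl was as small as 1.31 in menin-null and 1.04 in wild-type cells. The cohesin subunits Smc1a, Smc3 and Stag1 were called lower in both genotypes, and the subunits Rad21 and Stag2 did not pass.

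In PILECs, 5 of 56 members differed between menin-null and wild-type cells, where 6.68% of all genes did. The 4 higher ones stood beside 2.26% of all genes that were higher and the 1 lower beside 4.42%. All 5 differences were below 2-fold, so none met the study's own threshold, a 2-fold change at an unadjusted p under 0.005. In PILECs 0.830% of all genes met it and in mESCs 0.423%. An unadjusted p under 0.05 was found for 13 of 56 members in PILECs, beside 4230 of all 18193 genes. Pcdh11x was 1.71-fold higher in menin-null PILECs (0.77 ± 0.15, adjusted p = 0.0261), with 9.29 and 9.56 against 8.82 and 8.49 in wild-type PILECs, and its other probe set gave 0.48. Pcdh20 was 1.48-fold higher (0.56 ± 0.11, adjusted p = 0.0290), and its other probe set gave 0.14. Pcdh10 was 1.35-fold higher (0.44 ± 0.091, adjusted p = 0.0329), all 6 of its probe sets being positive between 0.041 and 0.92. Cdh6 was 1.29-fold higher (0.37 ± 0.085, adjusted p = 0.0438), but its other probe set gave 0.061. Cdh1 was 1.41-fold lower in menin-null PILECs (-0.50 ± 0.095, adjusted p = 0.0251). For all 5 genes the arrays of the 2 groups did not overlap. The genes were picked by these same arrays, so this adds no support.

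These calls depended on single arrays. The mESC arrays enter this comparison only through the spread that is pooled over all groups. The counts below stand without the share of all genes called in the same fits, so they do not single out the members. Without either of the wild-type PILEC arrays no member was called, with 11 members at an unadjusted p under 0.05 without array 1 and 10 without array 2. Without either menin-null PILEC array none of the 5 was called, while another member was, Pcdhb3 without array 1 and Cdh19 without array 2. Without either wild-type mESC array Pcdh20 alone was called. Without either menin-null mESC array 8 members were called, the same 5 with Cdh10, Cdh15 and Pcdhb3. Just outside the limit stood Pcdhb3 (0.61 ± 0.15, adjusted p = 0.0565), Cdh22 (0.38 ± 0.10, adjusted p = 0.0659), Cdh11 (-0.50 ± 0.13, adjusted p = 0.0678) and Cdh10 (0.60 ± 0.18, adjusted p = 0.0933). The dimmer probe set of Cdh11 gave -0.76, of the same sign, and passed when all probe sets were fitted (limma adjusted p = 0.0110). No beta protocadherin was called between the genotypes in PILECs.

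Several marker lists differed between the same arrays. The pluripotency list, of cells that also express Cdh1, averaged 8.65 to 8.70 in menin-null and 9.18 to 9.37 in wild-type PILEC arrays, with 5 of 8 markers called lower. The epithelial list averaged 7.19 to 7.28 in menin-null and 6.71 to 6.93 in wild-type PILEC arrays, with 4 of 6 called higher. The neuronal list averaged 12.2 to 12.4 in menin-null and 12.1 to 12.2 in wild-type PILEC arrays, with Syt1 alone of 8 called (0.59 ± 0.090). The list of neural progenitors and glia averaged 9.59 to 9.72 in menin-null and 9.39 in both wild-type PILEC arrays, and 2 of 6, Gfap and Olig2, were higher. The muscle list averaged 7.47 to 7.87 in menin-null and 9.04 to 9.34 in wild-type PILEC arrays, with 4 of 6 lower, while the muscle cadherin Cdh15 gave -0.49 ± 0.16 (adjusted p = 0.110). The list of parietal and visceral endoderm averaged 8.97 to 9.14 in menin-null and 8.43 to 8.57 in wild-type PILEC arrays, with Lama1, Lamb1 and Sox17 higher and Ttr lower of 8. The list of fibroblasts and feeder cells averaged 10.6 to 11.0 in menin-null and 10.8 to 10.9 in wild-type PILEC arrays, with Thy1 higher and Col1a2 and Lum lower of 7. None of the 11 islet or 6 endothelial markers was called by limma between the genotypes, while 5 and 1 of them had an unadjusted p under 0.05. Whether the makeup of the cultures had a part in the 5 calls was not tested.

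**Figure D5:**
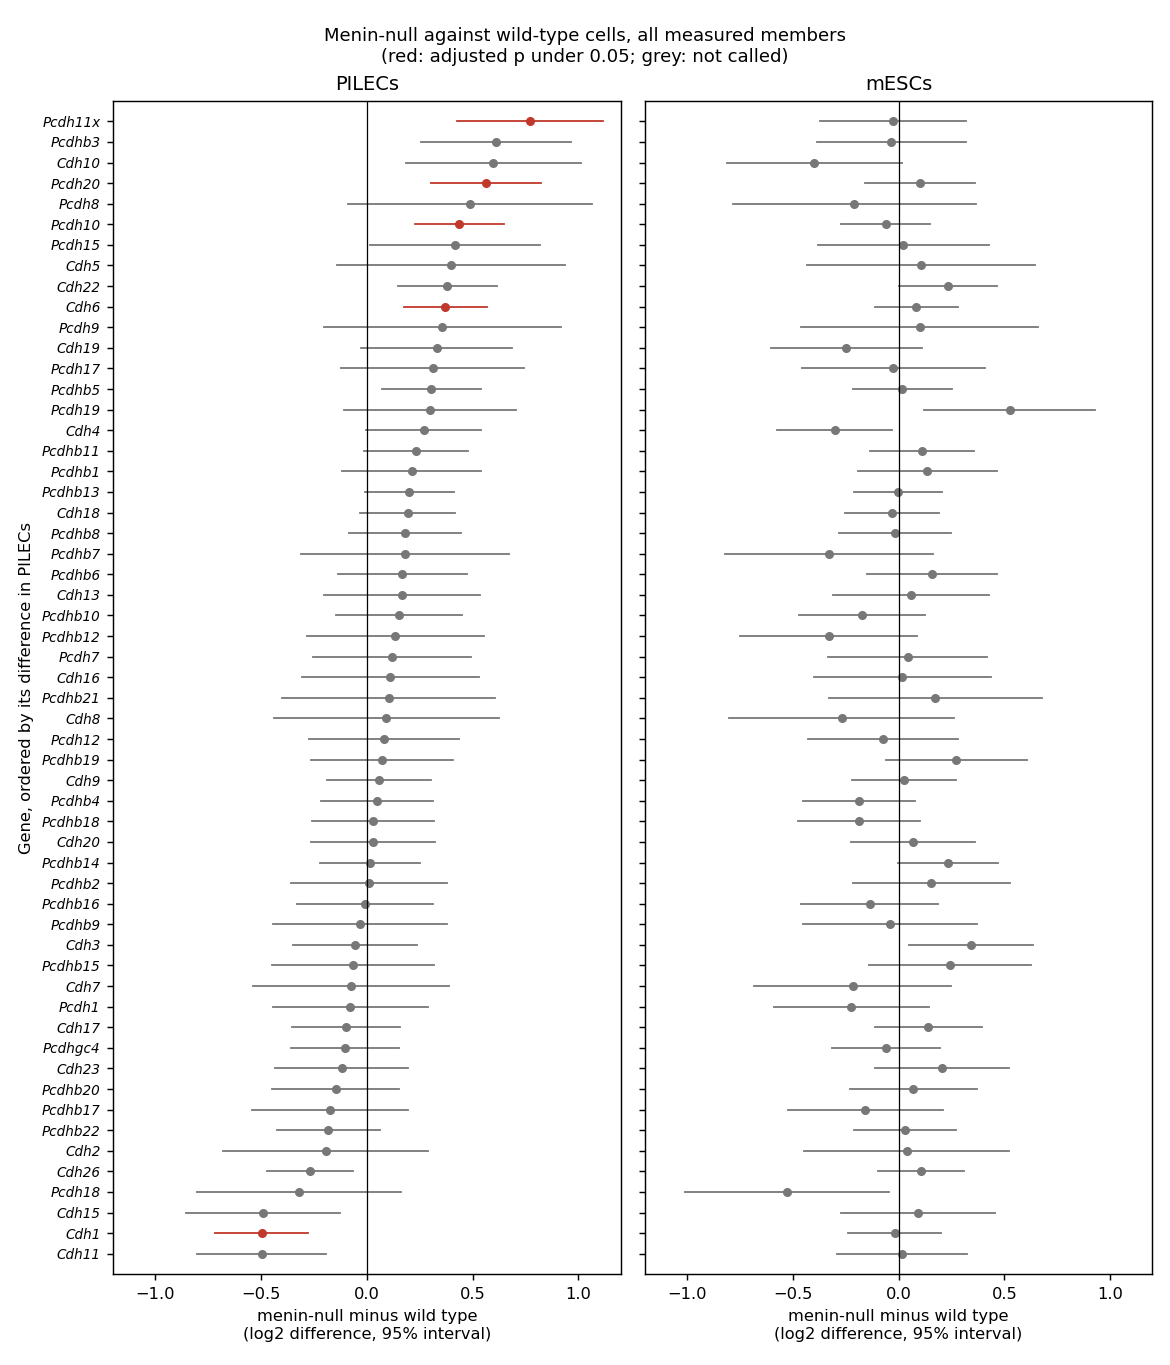
Differences between menin-null and wild-type cells for all 56 members, in PILECs (left) and in mESCs (right). Points are log2 differences, bars are 95% intervals, and genes run from the highest to the lowest difference in PILECs, with genes called in the panel in red. Pcdh11x, Pcdh20, Pcdh10 and Cdh6 are called higher and Cdh1 lower in PILECs, and no gene is called in mESCs.

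Of the related genes, Cdhr1, a cadherin-related protein of photoreceptors, differed most between the genotypes in PILECs. It gave 8.67 and 8.86 in menin-null PILECs and 6.74 and 6.40 in wild-type PILECs, a difference of 2.20 ± 0.13 (adjusted p = 0.000262), and 6.74 and 6.83 in menin-null mESCs and 7.09 and 6.94 in wild-type mESCs. Fat4, a giant cadherin of planar polarity, was lower in menin-null PILECs (-0.87 ± 0.11, adjusted p = 0.00646), and Clstn3, a calsyntenin of synapses, was higher (0.76 ± 0.13, adjusted p = 0.0166). Those were 3 calls among 22 genes of the wider superfamily. Of the switch factors Snai2 (-0.77 ± 0.18, adjusted p = 0.0441) and Twist1 (-0.34 ± 0.079, adjusted p = 0.0449) were lower in menin-null PILECs, and of the catenins and partners Vcl was (-0.39 ± 0.093, adjusted p = 0.0498). None of the 11 promoter factors was called. Of 18 alternative settings, the call of Cdhr1 held in 18, that of Fat4 in 15 and that of Clstn3 in 13. The calls of Snai2, Twist1 and Vcl held in only 6, 5 and 4 of them.

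In mESCs no member was called between menin-null and wild-type cells by limma, where 3.64% of all genes were. An unadjusted p under 0.05 was found for 5 of 56 members, beside 3370 of all 18193 genes. Those 5 members were Pcdh19 (0.53, 95% interval 0.12 to 0.93), Cdh3 (0.34, 0.048 to 0.63) and Cdh22 (0.23, 0.0021 to 0.47) with higher means in menin-null mESCs, and Pcdh18 (-0.53, -1.01 to -0.044) and Cdh4 (-0.30, -0.58 to -0.029) with lower means. Their other probe sets gave -0.32 and 0.065 for Pcdh19, 0.26 for Cdh3, -0.029 and -0.021 for Pcdh18, and -0.032 and 0.096 for Cdh4. Cdh22 had 1 probe set. Pcdh18 gave 5.18 and 5.91 in menin-null against 6.06 and 6.08 in wild-type mESCs, array 1 being the lower. Cdh1, which holds the colonies together, differed by -0.017 with an interval of -0.24 to 0.20. Menin-null mESC array 2 lay closer to the wild-type mESC arrays than array 1 did over all genes, and without it 4 members were called, 2 higher and 2 lower, where 7.86% of all genes were. Grhl2 was the only switch factor called in mESCs, lower in menin-null cells (-0.76 ± 0.086, adjusted p = 0.00612).

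Whether loss of menin acted differently on the members in PILECs and in mESCs was tested as the difference of both genotype effects. No member passed by its brightest probe set, where 3.06% of all genes did. The dimmer probe set of Cdh11 passed when all probe sets were fitted (-0.90 ± 0.15, limma adjusted p = 0.0315). An unadjusted p under 0.05 was found for 12 of 56 members, beside 3409 of all 18193 genes. The lowest adjusted p values were those of Cdh10 (1.0 ± 0.25, adjusted p = 0.0854), Pcdh10 (0.50 ± 0.13, adjusted p = 0.0891), Pcdh11x (0.79 ± 0.21, adjusted p = 0.0962) and Cdh1 (-0.48 ± 0.13, adjusted p = 0.109). Cdh10 had a lower mean in menin-null than in wild-type mESCs (-0.40) and a higher one in PILECs (0.60). Of its 4 probe sets, only 2 were lower in menin-null mESCs, while all 4 were higher in menin-null PILECs. The calls in PILECs were therefore not shown to differ from the differences in mESCs. Of the related genes Cdhr1 (2.44 ± 0.18, adjusted p = 0.0018) and Grhl2 (0.99 ± 0.12, adjusted p = 0.0119) passed higher, and Fat4 (-0.86 ± 0.16, adjusted p = 0.0344) and Twist1 (-0.57 ± 0.11, adjusted p = 0.0414) passed lower. Of 17 alternative settings, these calls held in 16 for Cdhr1, 11 for Grhl2, 6 for Fat4 and 5 for Twist1.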

How the data were processed

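RNA of 8 cultures was hybridised to Affymetrix mouse expression arrays, 2 independent cultures a group. The deposited values are log2 signals, 1 per probe set. RMA and Partek, without versions, stand in the submitters' processing notes, while the study's methods give the MAS software, so which software the authors used for these values stays uncertain. No genome build applies to them. Values ran from 3.26 to 15.2 and were used as deposited. The number of arrays limits the precision.

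Of 45101 probe sets, 64 controls, 9160 without a symbol in the platform annotation and 932 with several symbols were left out. Of several probe sets of a gene the brightest, averaged over the 8 arrays, was kept, which left 18193 genes. Members had 101 probe sets, and 27 members had more than 1. limma 3.58.1 (R 4.3.3) fitted 4 group means (4 residual degrees of freedom, 3.72 prior degrees of freedom), with Benjamini-Hochberg adjustment over all 18193 genes and a limit of 0.05, in 5 contrasts. The fit was tested on simulated data. With 2 arrays a group an exact permutation test cannot go below p = 0.333 and was not used. The spread between cultures of 1 line is all that the p-values measure.

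Members called in any contrast were named, and those called between genotypes or changed by at least 1 on the log2 scale were given by array, for at most 30 genes, largest change first. Members, roles and lists were chosen with earlier results of these data known, and support no direction. Marker lists were averaged per array on the log2 scale. Replicate numbers did not pair the arrays, so no block was used. Promoters came from RefSeq (GRCm38.p6) and neighbours and chromosomes from the gene table of that assembly. Alternatives were another normalization, the choice of probe set, a filter at 7, other variance moderation, fewer arrays in the fit, a replicate block, the study's threshold and leaving out each array.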

Additional observations from a re-analysis of the deposited data

Results flagged for a closer look

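The 6 probe sets that carry several alpha protocadherin symbols at once took no part in the comparisons above. Between PILECs and mESCs, 4 of them passed the test as higher in menin-null PILECs, and 3 of these also did in wild-type PILECs. In menin-null cells the differences were 6.64, 1.79, 5.03 and 0.52 on the log2 scale, and in wild-type cells the same probe sets gave 5.67, 1.79, 4.82 and 0.39, the last with an adjusted p of 0.0821 (limma). The brightest averaged 10.88 in menin-null and 10.26 in wild-type PILECs, against 4.24 in menin-null and 4.59 in wild-type mESCs. The signal cannot be assigned to any 1 alpha gene, since the probe sets with the differences of 6.64, 1.79 and 5.03 each carry 14 symbols.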

How the results depend on the processing

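The direction of every member call held under all alternatives. Only another normalization, another choice of probe set or the omission of an array of the comparison could have changed it. The other alternatives left each difference as it was. Of 1453 pairs of a member called between PILECs and mESCs and an alternative, 1396 kept the call and 57 lost it, and of 90 such pairs between genotypes in PILECs 44 kept it and 46 lost it. The count of 5 members called between the genotypes in PILECs was 8 with the mean of all probe sets, 8 with genes of a group mean of at least 7 only, 0 without variance moderation (10 at an unadjusted p under 0.05), 0 at the study's threshold, and 0 to 8 when single arrays were left out. With the replicate block it was 2, Pcdh11x and Pcdh20, although the numbers did not pair the arrays. The deviations of same-numbered arrays correlated at -0.230 in PILECs and -0.277 in mESCs between the genotypes, and at 0.209 in menin-null and 0.0641 in wild-type cells between PILECs and mESCs. A crossed pairing, chosen after seeing the data, gave 7. The count in mESCs was 0 to 4 when single arrays were left out and 0 otherwise. For the difference of the genotype effects the count was 1 after quantile normalization, with the mean of all probe sets, with genes of at least 7 only and with the crossed pairing, 2 with limma-trend, and 0 to 1 when single arrays were left out. Counts between PILECs and mESCs stayed within 1.5 times of 41, and the replicate block moved no other count by as much. Among related genes, Smchd1 in wild-type cells was the only call to turn, to 0.069 with the mean of all probe sets. The cause was not tested.

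With 2 arrays a group, a lone array left after an omission was assumed to vary like the other groups. The limit of 7 is no measured background, and values under it were not checked against one. One line per genotype and mixed cultures limit what a difference can be tied to.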
